A study of Mus musculus with 768 samples.

Results

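The sphingosine-1-phosphate (S1P) receptor genes S1pr1, S1pr4 and S1pr5, the transcription factor gene Klf2 and the activation marker gene Cd69 were described in tumor-infiltrating NK cells of mice. These 5 genes were chosen by name, as genes of lymphocyte exit from tissue, and were 5 of the 24490 gene entries measured in every cell. NK cells had been sorted by surface markers from tumors of MTAP1A, an MHC class I-low fibrosarcoma line derived from a Tap1-deficient mouse, and were sequenced one by one with SMART-SEQ2, a method that reads whole transcripts and adds no molecular identifiers. WT mice were C57BL/6 and PD-1-/- mice were C57BL/6 with a deletion in Pdcd1, and both carried the same tumor line. Tumors of 3 mice were pooled for each genotype and the cells of each pool were on 1 plate. The labels give 382 sorted NK cells in total, fewer than the 726 cells kept here. The study itself reported more than 382 cells over both genotypes after its quality control, so that number cannot cover both plates. Each genotype was thus 1 sample, so that its effect and that of the plate cannot be told apart, and cells of a pool are not replicates. For this reason no test between groups was made, and the intervals given are exact binomial 95% intervals (Clopper-Pearson) for shares and 95% Wilson-based intervals for differences of shares, which cover counting error only.

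S1P is abundant in blood and lymph and scarce within tissue, and lymphocytes leave tissue along this gradient by means of S1P receptors on their surface. KLF2 is a transcription factor of resting, recirculating lymphocytes and is known to drive transcription of S1pr1, while the CD69 protein binds the S1PR1 protein and removes it from the cell surface. S1PR5 is the S1P receptor best known for the exit of NK cells from bone marrow and lymph node, S1PR4 is a receptor largely restricted to blood cells, and CXCR6 and the integrin CD49a, encoded by Itga1, mark lymphocytes that stay in tissue.

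In the GRCm38 annotation (GENCODE M21), S1pr1 lay at chr3:115710433-115715072 on the minus strand with 2 exons, S1pr4 at chr10:81497747-81500132 on the minus strand with 1 exon, and S1pr5 at chr9:21242912-21248443 on the minus strand with 3 exons. Klf2 lay at chr8:72319033-72321656 on the plus strand with 3 exons and Cd69 at chr6:129267325-129275436 on the minus strand with 5 exons. No member shared a stretch of 31 bases with another member, and between 0% (Klf2) and 2.76% (S1pr4) of the stretches of a member were found in transcripts of any other gene. S1pr5 overlapped the antisense gene Gm48303, and since SMART-SEQ2 does not mark the strand, reads from the part they share cannot be told apart. Of the S1pr5 stretches of 31 bases, 1.215% were found in transcripts of any other gene, Gm48303 among them.

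KLF proteins bind a core of the letters CACCC. Below are the 250 bases before the RefSeq start of the 3 members with an entry in the RefSeq promoter table (GRCm38.p6), Klf2 at chr8:72318812-72319061 on the plus strand, S1pr5 at chr9:21248444-21248693 and S1pr4 at chr10:81500138-81500387, both on the minus strand. They are shown as a description, for every member with an entry, and were not chosen by co-detection. The number of cells with both Klf2 and S1pr5 was 1.28 times the product of the shares in WT and 1.43 times in PD-1-/-. For Klf2 and S1pr4 it was 1.13 and 1.04 times, a difference between pairs that was not tested. Capitals mark CACCC or its reverse complement GGGTG.
Klf2: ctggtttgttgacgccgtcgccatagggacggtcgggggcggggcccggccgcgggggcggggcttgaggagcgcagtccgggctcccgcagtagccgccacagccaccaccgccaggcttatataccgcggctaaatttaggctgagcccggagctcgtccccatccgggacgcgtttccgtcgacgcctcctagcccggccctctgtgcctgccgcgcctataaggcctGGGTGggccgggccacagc
S1pr5: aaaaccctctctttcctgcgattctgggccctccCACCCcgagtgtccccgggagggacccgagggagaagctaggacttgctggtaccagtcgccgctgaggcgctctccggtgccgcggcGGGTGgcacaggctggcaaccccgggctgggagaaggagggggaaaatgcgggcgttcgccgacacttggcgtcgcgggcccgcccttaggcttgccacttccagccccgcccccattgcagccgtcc
S1pr4: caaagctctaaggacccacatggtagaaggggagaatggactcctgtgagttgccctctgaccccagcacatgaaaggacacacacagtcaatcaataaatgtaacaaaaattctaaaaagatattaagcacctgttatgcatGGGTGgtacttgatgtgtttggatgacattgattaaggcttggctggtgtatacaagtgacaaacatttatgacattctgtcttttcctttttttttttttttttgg
The RefSeq start of Klf2 lies inside the GENCODE gene given above, so that the end of its window, with its match, falls within that gene. The S1pr5 window held 2 matches, 1 on each strand, and the Klf2 and S1pr4 windows held 1 each. Of 32851 promoter windows of this length in the table, 52.01% held at least 1 match and 21.1% held at least 2, and a match says only that these letters are present. The S1pr5 and Klf2 windows were 69.2% and 71.2% G or C, against 38.8% for S1pr4. S1pr1 and Cd69 have no entry, so no window can be shown for S1pr1, whose pair with Klf2 had the highest ratio (1.69 on both plates). Whether the matches have a part in any co-detection was not tested.

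Wells with between 1000 and 3500 detected genes were kept, which left 726 cells, 360 of them WT. A gene was called detected in a cell at an RPKM above 0, a unit that corrects read numbers for gene length and for the mapped reads of each cell. The kept cells had a median of 2264 detected genes in WT and 2262 in PD-1-/-, and the whole reads recovered from the RPKM steps had a median of 324158 per cell with a range from 1316 to 561123. The NK marker gene Ncr1 was found in 90.8% of WT cells and 91.8% of PD-1-/- cells. Klrb1c, which encodes NK1.1, a marker used for the sort, was found in 96.1% and 96.99%. Of the 8 NK markers listed, Eomes was found least often, in 61.9% and 55.2%. The sort had excluded cells with CD3 on the surface, yet transcripts of Cd3d, Cd3e or Cd3g were found in 65 WT cells (18.1%) and 83 PD-1-/- cells (22.7%). Values without these cells are given for the genotype difference in Klf2, for the co-detections of Klf2 and Cd69 and for the splits by Cxcr6 and Itga1. B cell markers were found in 1.39% and 1.64% of cells and fibroblast markers of the tumor line in 5.83% and 3.01%. Endothelial cells also use S1pr1 and Klf2, and the endothelial genes Cdh5, Kdr or Tek were found in 9 of 726 cells, in 3 of the cells with S1pr1 (2.52%) and in 5 of the cells with Klf2 (1.805%). Pecam1, the other gene of the endothelial list, was found in 27% of all cells, 26.9% of the cells with S1pr1 and 19.9% of those with Klf2, and blood cells express it as well.

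S1pr4 was the member found most often and S1pr1 the one found least often. S1pr4 was detected in 48.9% of WT cells (95% interval 43.6 to 54.2) and 50% of PD-1-/- cells (44.8 to 55.2). S1pr5 was detected in 22.5% of WT cells (81 cells, 18.3 to 27.2) and 25.4% of PD-1-/- cells (93 cells, 21.03 to 30.2), and S1pr1 in 16.7% (60 cells, 12.97 to 20.9) and 16.1% (59 cells, 12.5 to 20.3). The order S1pr4, S1pr5, S1pr1 was the same on both plates, and the intervals of S1pr5 and S1pr1 overlapped in WT but not in PD-1-/- cells. Cd69 was found in 34.7% of WT cells (29.8 to 39.9) and 32.2% of PD-1-/- cells (27.5 to 37.3). Klf2 was the member whose share differed most between the plates, 43.3% in WT (38.15 to 48.6) and 33.1% in PD-1-/- (28.3 to 38.1).

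**Figure D1:**
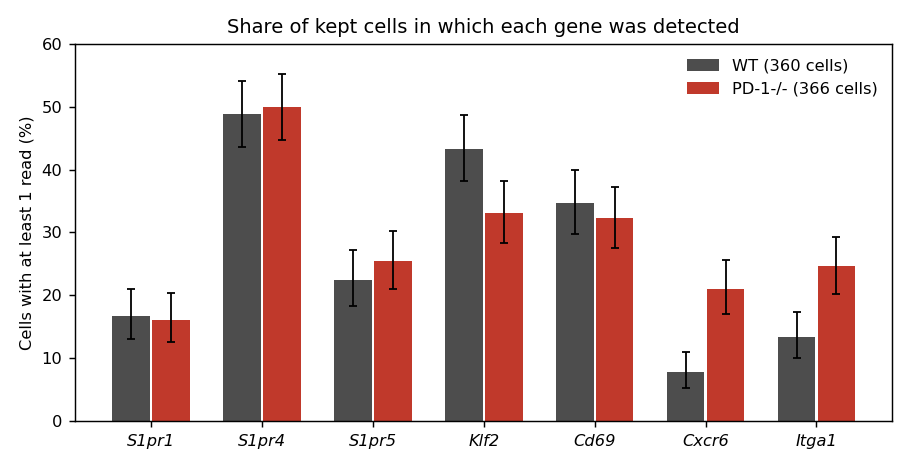
Share of kept cells with at least 1 read of each member and of Cxcr6 and Itga1, in percent, for 360 WT cells and the kept PD-1-/- cells; bars are shares and error bars exact binomial 95% intervals. The members differ little between the plates except Klf2 (43.3% and 33.1%), whereas Cxcr6 and Itga1 are found more often in PD-1-/- cells.

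In cells where a receptor was found, its median level was well above that of single reads, and its lowest level was 1 read. S1pr1 ranged from 0.848 to 1314 RPKM with a median of 204.3 over the 60 WT cells with the gene, and from 0.797 to 597.7 with a median of 206.8 over the 59 PD-1-/- cells. S1pr4 ranged from 0.930 to 1046 RPKM (median 174.2) in WT and from 0.818 to 698 (median 153.8) in PD-1-/- cells. S1pr5 ranged from 0.904 to 1101 RPKM (median 174.03) in WT and from 0.795 to 1030 (median 154.6) in PD-1-/- cells. The 3 receptors thus had like levels per positive cell, and they differed in how many cells held them. Klf2 ranged from 1.66 to 775 RPKM with a median of 100.6 in WT, and from 1.04 to 1072 with a median of 147.8 in PD-1-/- cells. Cd69 had the widest range, from 1.63 to 6368 RPKM with a median of 306.8 in WT and from 1.62 to 2851 with a median of 348.1 in PD-1-/- cells. Ranges of the 2 genotypes overlapped for all 5 genes.

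A minority of the detections rested on few reads. Over both genotypes, fewer than 10 reads were behind 20 of the cells with S1pr1, 24 with S1pr4, 28 with S1pr5, 31 with Klf2 and 44 with Cd69. For Klf2 these were 24 WT cells and 7 PD-1-/- cells.

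**Figure D2:**
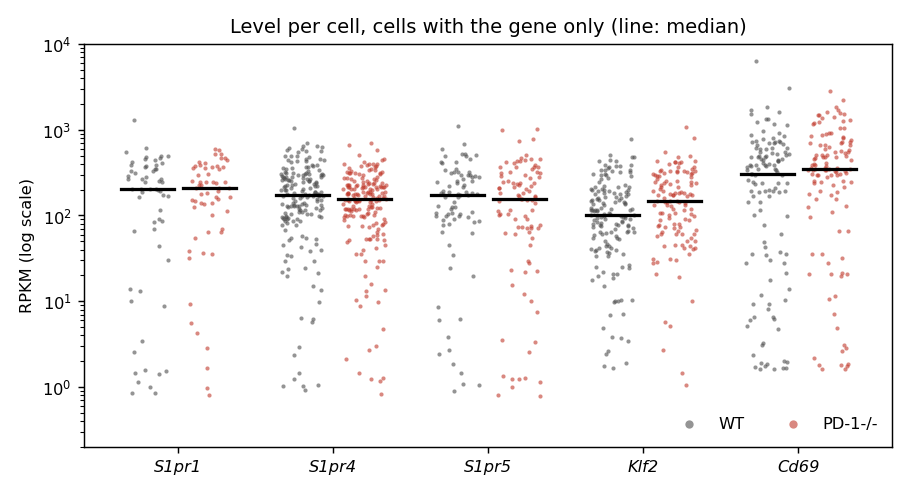
RPKM per cell on a log scale for the 5 members, 1 point per kept cell in which the gene was detected, by genotype; horizontal lines are medians. The ranges of the 2 genotypes overlap for each gene, and the tail of points below 10 RPKM comes from cells with few reads of the gene.

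The first comparison was between the genotypes. None of the 5 members reached a 2-fold difference in mean RPKM over all kept cells, where 1.94% of 8576 genes found in at least 5% of cells did. The log2 ratio of PD-1-/- over WT, computed with 1 RPKM added to each mean, was -0.12 for S1pr1 (means of 35.7 and 38.85 RPKM), -0.24 for S1pr4 (86.9 and 102.7), 0.15 for S1pr5 (51.8 and 46.5), 0.03 for Klf2 (61.7 and 60.2) and 0.08 for Cd69 (164.6 and 156.1). The median over all genes tested was -0.01. S1pr5 is among the genes that the study chose from these samples, and its direction is not independent evidence.

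By share of cells, the intervals of the genotype difference included 0 for S1pr1, which was 0.55 percentage points lower in PD-1-/- cells (interval of PD-1-/- minus WT from -5.96 to 4.85), for S1pr4 with a difference of 1.11 points (-6.13 to 8.34), for S1pr5 with 2.91 points (-3.305 to 9.09) and for Cd69 with -2.48 points (-9.305 to 4.37). The share with Klf2 was 10.3 points lower in PD-1-/- cells (difference -10.3, from -17.2 to -3.205), while its mean RPKM was nearly equal, and the median level in cells that held it was higher in PD-1-/- cells. Fewer than 10 reads were behind 24 of the Klf2 detections in WT and 7 in PD-1-/- cells, so weak detections added more to the WT share. The lower Klf2 share in PD-1-/- cells thus rested in part on WT detections of fewer than 10 reads. The difference without these weak detections, and whether its interval would include 0, was not computed. The Klf2 difference was -9.72 points after each cell was thinned to 100000 recovered reads. Without the cells that had Cd3 transcripts it was -3.90 points (-11.8 to 4.05), an interval that included 0. Klf2 was found in 52.3% of the 65 WT cells with a Cd3 transcript (39.5 to 64.8) and in 18.1% of the 83 such PD-1-/- cells (10.48 to 28.05), against 41.4% and 37.5% of the cells without one. The whole list of T cell markers was found in part on both plates, with 9 of 10 genes above 0 in WT, where Themis was at 0, and 10 of 10 in PD-1-/-, and its summed level ranged from 0 to 5387 and from 0 to 6140 RPKM. By plate rows the difference was -13.0 points in rows A to H and -7.69 points in rows I to P, the latter with an interval from -17.2 to 2.04.

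The PD-1-/- plate also held more cells with Cxcr6 (21.04% against 7.78%) and with Itga1 (24.6% against 13.3%). Among cells with neither gene, a restriction chosen after the values had been seen, Klf2 was found in 45.2% of WT cells and 41.8% of PD-1-/- cells, a difference of -3.34 points (-11.6 to 5.07). Among cells with Cxcr6 or Itga1, it was found in 20 of 59 WT cells (33.9%) and 21 PD-1-/- cells (16.5%), a difference of -17.4 points (-31.2 to -4.29). The part of these cells in the genotype difference was not tested.

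Klf2 and S1pr1 were the pair found together most often relative to their shares. In WT, Klf2 was detected in 73.3% of the 60 cells with S1pr1 (60.3 to 83.9) and in 37.3% of the 300 cells without it (31.8 to 43.1), a difference of 36 points (22.45 to 46.9). In PD-1-/- cells, these shares were 55.9% of 59 cells (42.4 to 68.8) and 28.7% of the others (23.7 to 34.1), a difference of 27.3 points (13.6 to 40.1). Both genes were found in 44 WT cells, where the product of the shares gives 26, and in 33 PD-1-/- cells, where it gives 19.5. This is 1.69 times the product on both plates. Read the other way, S1pr1 was found in 28.2% of WT cells with Klf2 and 7.84% of those without, and in 27.3% and 10.6% of PD-1-/- cells.

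Klf2 and S1pr5 were also found together more often than the product of their shares. Klf2 was detected in 55.6% of the 81 WT cells with S1pr5 (44.1 to 66.6) and in 39.8% of those without (34 to 45.8), a difference of 15.8 points (3.47 to 27.5). The corresponding shares in PD-1-/- were 47.3% of 93 cells (36.9 to 57.9) and 28.2% (22.95 to 33.9), a difference of 19.1 points (7.78 to 30.3). By mean RPKM, S1pr1 and S1pr5 were both at least 2-fold higher in cells with Klf2 than without on both plates, with log2 ratios of 2.198 and 1.42 for S1pr1 and of 1.20 and 1.35 for S1pr5 in WT and PD-1-/- cells, where 0.233% of 8575 genes were 2-fold higher on both plates and 0.700% were 2-fold lower. S1pr4, with log2 ratios of 0.40 and 0.30, and Cd69, with -0.31 and 0.58, did not reach 2-fold.

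Both co-detections kept their direction with thinned reads and without cells holding Cd3 transcripts. For S1pr1 the differences in the Klf2 share were 34.8 points in WT and 23.7 in PD-1-/- after thinning, and 33.3 and 29.9 without the Cd3 cells. For S1pr5 they were 19.4 and 22.6 points after thinning and 17.9 and 21.8 without the Cd3 cells. Cells with Klf2 had fewer detected genes than cells without it, at medians of 2164 and 2333 in WT and 2074 and 2363 in PD-1-/-.

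The share with S1pr5 also followed the amount of Klf2, whereas that of S1pr1 did not go beyond presence. S1pr5 was found in 17.65% of WT cells without Klf2, in 23.1% of the 78 with Klf2 up to its median and in 34.6% of the 78 above it, and in 20%, 24.6% (of 61) and 48.3% (of 60) of PD-1-/- cells. S1pr1 was found in 7.84%, 26.9% and 29.5% of the same WT cells and in 10.6%, 27.9% and 26.7% of the PD-1-/- cells. In PD-1-/- cells, the interval of S1pr5 above the Klf2 median (35.2 to 61.6) lay apart from that in cells without Klf2 (15.2 to 25.6).

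S1pr1 and S1pr5, the receptors that were found with Klf2, were not found with each other beyond the product of their shares. S1pr5 was detected in 18.3% of the WT cells with S1pr1 and 23.3% of those without, a difference of -5.00 points (-14.3 to 7.41), and in 25.4% of PD-1-/- cells both with and without S1pr1, a difference of 0.0166 points (-10.7 to 13.2). The mean RPKM of S1pr5 in cells with S1pr1 over cells without had log2 ratios of -0.77 in WT and 0.00 in PD-1-/-. At least 1 of S1pr1 and S1pr5 was found in 36.1% of WT cells and 37.4% of PD-1-/- cells. None of S1pr1, S1pr5 and Klf2 was found in 42.5% of WT cells (37.3 to 47.8) and 47.8% of PD-1-/- cells (42.6 to 53.1), and all 3 in 10 cells of each genotype.

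S1pr4 was spread more evenly. Klf2 was found in 48.9% of the WT cells with S1pr4 and 38.04% of those without (difference 10.8 points, 0.59 to 20.75), but in 34.4% and 31.7% in PD-1-/- cells (2.73 points, -6.86 to 12.3). With S1pr1, S1pr4 had a difference of 17.3 points in WT (3.48 to 29.7) and 5.05 points in PD-1-/- (-8.71 to 18.3). The WT interval reached 0 after thinning (-0.03 to 28.4), at a limit of 10 RPKM (-1.53 to 27.3), in cells with at least 100000 recovered reads (-0.58 to 26.6), in cells with neither Cxcr6 nor Itga1 (-0.81 to 28.8) and in rows I to P (-7.91 to 28.99). S1pr5 was found in 23.3% of WT cells with S1pr4 and 21.7% of those without, and in 25.7% and 25.1% in PD-1-/- cells.

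Counted together, 34.4% of WT and 31.4% of PD-1-/- cells held none of the 3 receptors, 45.6% and 48.4% held 1, 17.5% and 17.5% held 2, and 9 and 10 cells held all 3. The share with Klf2 was 31.45%, 40.85%, 66.7% and 88.9% in WT cells with 0, 1, 2 and 3 receptors, and 26.1%, 27.1%, 57.8% and 60% in PD-1-/- cells. The intervals with 1 and with 2 receptors did not overlap, at 33.2 to 48.8 and 53.7 to 78.05 in WT and 20.7 to 34.3 and 44.8 to 70.1 in PD-1-/- cells. Every cell with 2 or 3 receptors holds S1pr1 or S1pr5 by construction, whereas a cell with 1 can hold S1pr4 only. The step with receptor number therefore reads the same cells as the pairs above and is no separate evidence.

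Over all kept cells, Cd69 transcript had intervals of the difference that included 0 with each of the other members. Its share in cells with S1pr1 was 35% and in cells without 34.7% in WT (difference 0.33 points, -11.8 to 13.98), and 30.5% and 32.6% in PD-1-/- cells (-2.065 points, -13.7 to 11.5). It was lower in cells with S1pr5 on both plates, at 28.4% against 36.6% in WT and 29.03% against 33.3% in PD-1-/-, but both intervals included 0 (-18.6 to 3.77 and -14.4 to 6.95). With Klf2, the difference was 6.599 points in WT (-3.27 to 16.5) and -6.19 points in PD-1-/- cells (-15.7 to 4.10). Among cells with neither Cxcr6 nor Itga1, the Klf2 difference was 5.25 points in WT (-5.41 to 15.9). In such PD-1-/- cells it was -12.0 points (-23.0 to -0.08), an interval that did not include 0. Without the cells with Cd3 transcripts, the Cd69 differences in WT and PD-1-/- cells were -6.17 and -9.66 points with S1pr1, -6.21 and -1.48 with S1pr5, and 1.91 and -8.05 with Klf2, and all 6 intervals included 0. Of the 10 pairs, 5 were found together more often than the product of the shares on both plates, 1 less often on both, and 4 were split. The 5 include ratios close to 1, such as 1.035 in WT and 1.011 in PD-1-/- for S1pr4 and S1pr5. No share over pairs of other genes stands beside this count, which is a description only.

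**Figure D3:**
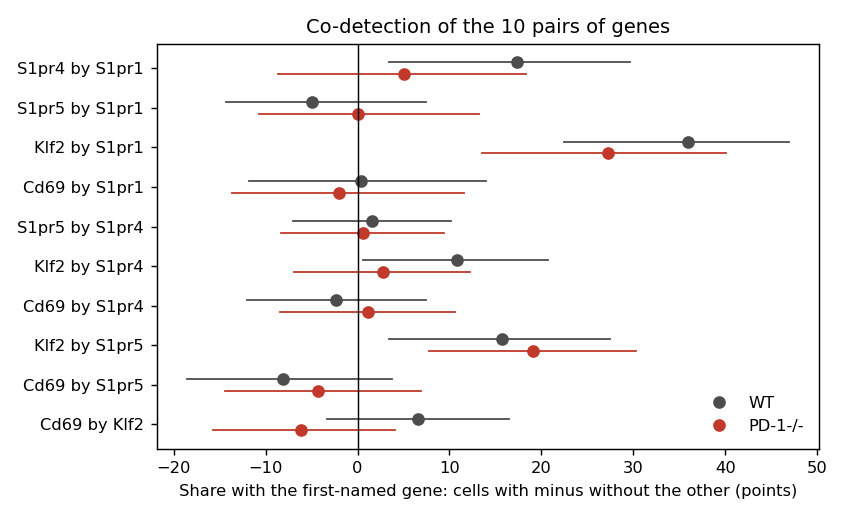
Co-detection of the 10 pairs of members. Each row gives the share of cells with the first-named gene among cells with the other gene, minus the share among cells without it, in percentage points, with 95% intervals, for WT and PD-1-/- cells. Klf2 by S1pr1 (36 and 27.3 points) and Klf2 by S1pr5 (15.8 and 19.1 points) are the rows whose intervals lie above 0 for both genotypes.

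The members were next compared between cells with and without Cxcr6, of which there were 28 with the gene in WT and 77 in PD-1-/-. In PD-1-/- cells, Klf2 was found in 14.3% of cells with Cxcr6 (11 of 77, 7.35 to 24.1) and 38.1% of cells without (32.4 to 43.9), a difference of -23.8 points (-32.15 to -12.8). S1pr5 was found in 12.99% of them (10 of 77, 6.41 to 22.6) against 28.7% (23.6 to 34.3), a difference of -15.7 points (-23.7 to -5.22). S1pr1 was not lower in cells with Cxcr6, at 18.2% against 15.6% (2.61 points, -5.81 to 13.3). S1pr4 was found in 51.95% and 49.5%, and Cd69 in 29.9% and 32.9%, of PD-1-/- cells with and without Cxcr6.

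The 28 WT cells with Cxcr6 gave wide intervals, which held the PD-1-/- difference for S1pr5 but not that for Klf2. Klf2 was found in 39.3% of them (11 of 28, 21.5 to 59.4) against 43.7% (-4.39 points, -21 to 14.65), and S1pr5 in 17.9% (5 of 28) against 22.9% (-5.03 points, -16.1 to 13.2). S1pr4 was found in 64.3% against 47.6% (16.7 points, -2.53 to 32.6), S1pr1 in 21.4% against 16.3% and Cd69 in 39.3% against 34.3%. Of these 28 cells, 18 held a Cd3 transcript and 14 lay in plate rows A and B, and the NK marker Ncr1 was found in 53.6% of them against 93.98% of the WT cells without Cxcr6. Without rows A and B, the WT differences were 8.44 points for Klf2 and 4.87 for S1pr5, the opposite direction.

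The split by Itga1 had more cells with the gene. Both Itga1 and Cxcr6 were found in 17 WT cells and 40 PD-1-/- cells, so these splits share cells and are not separate evidence. In PD-1-/-, Klf2 was found in 13.3% of the 90 cells with Itga1 (7.08 to 22.1) and 39.5% of those without (33.7 to 45.5), a difference of -26.2 points (-34.2 to -15.95). S1pr5 was found in 13.3% of the same 90 cells and in 29.35% of the others (24.04 to 35.1), a difference of -16.0 points (-23.9 to -6.09). S1pr1, with -0.75 points (-8.49 to 8.94), S1pr4, with 2.95 points (-8.82 to 14.5), and Cd69, with 5.87 points (-4.96 to 17.4), had intervals that included 0. In WT, Klf2 was found in 31.25% of the 48 cells with Itga1 against 45.2% (-13.9 points, -26.5 to 1.15) and S1pr5 in 14.6% against 23.7% (-9.135 points, -18.0 to 4.19), the same direction as in PD-1-/- cells but with intervals that reached 0. In plate rows I to P alone these WT differences were -1.20 and -1.65 points. Whether the differences themselves differ between the genotypes was not tested.

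**Figure D4:**
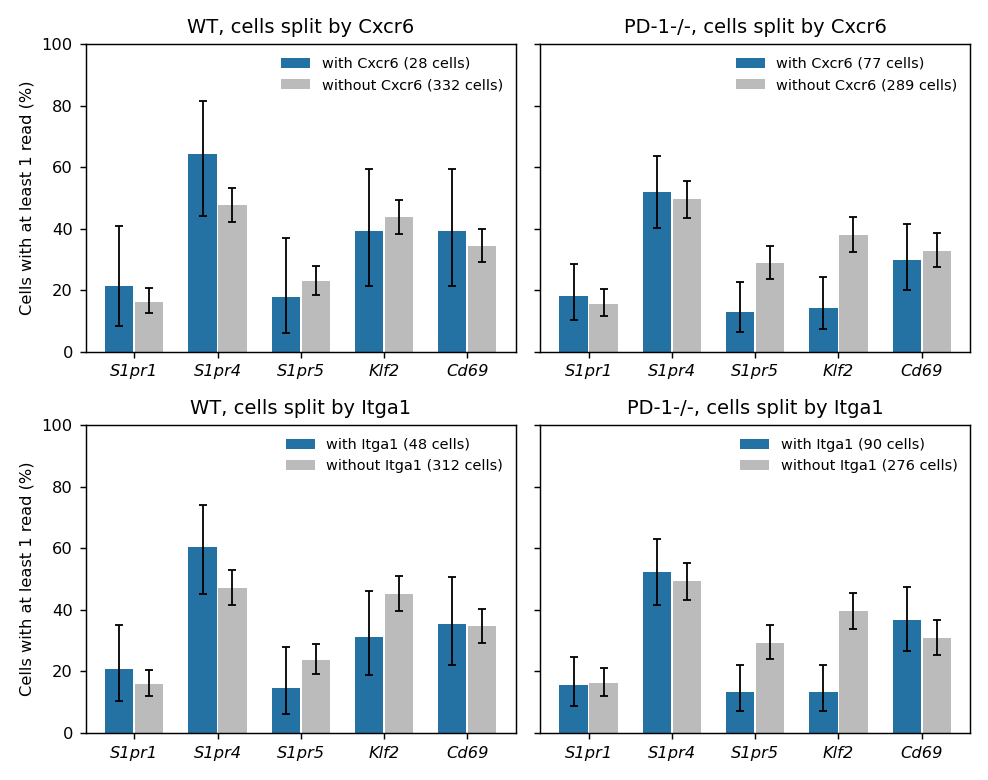
Share of cells with each member among cells with and without Cxcr6 (top) and Itga1 (bottom), in percent, in WT (left) and PD-1-/- cells (right); error bars are exact binomial 95% intervals. In PD-1-/- cells the bars of S1pr5 and Klf2 are lower with Cxcr6 or Itga1, and the error bars of S1pr1, S1pr4 and Cd69 overlap.

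By mean RPKM, none of the 5 members was 2-fold higher or 2-fold lower on both plates in cells with Cxcr6, where 1.10% of genes were higher and 2.52% lower, or in cells with Itga1, where 0.828% were higher and 1.57% lower. The log2 ratios with Cxcr6 over without were -1.17 in WT and -0.75 in PD-1-/- for S1pr5 and -0.64 and -1.105 for Klf2. With Itga1 they were -0.60 and -1.05 for S1pr5 and -0.63 and -1.59 for Klf2. For S1pr1 they lay between -0.13 and 0.26 over both splits and both plates.

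PD-1-/- cells with both Cxcr6 and Itga1 had the lowest shares of Klf2, S1pr5 and S1pr1 of the 4 classes made by these 2 genes, but not of S1pr4 and Cd69. Of these 40 cells, 2 held Klf2 (5%, 0.61 to 16.9) and 1 held S1pr5 (2.50%, 0.06 to 13.2), while 4 held S1pr1 (10%), 21 held S1pr4 (52.5%) and 12 held Cd69 (30%). In PD-1-/- cells with Cxcr6 only or Itga1 only, Klf2 was found in 24.3% of 37 and 20% of 50 cells and S1pr5 in 24.3% and 22%. The PD-1-/- cells with neither gene held Klf2 in 41.8% and S1pr5 in 30.1%. Of the 17 WT cells with both, 6 held Klf2 (35.3%, 14.2 to 61.7) and 2 held S1pr5 (11.8%, 1.46 to 36.4).

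T cell markers and the NK marker Eomes moved with both splits. A Cd3 transcript was found in 64.3% of WT cells with Cxcr6 and 14.2% of those without, and in 42.9% and 17.3% of PD-1-/- cells. With Itga1 these shares were 35.4% and 15.4% in WT and 33.3% and 19.2% in PD-1-/-. In PD-1-/- cells with Cxcr6, 9 of the 10 T cell markers were found, with Themis at 0, and their summed level ranged from 0 to 6140 RPKM against 0 to 5164 in cells without. Among PD-1-/- cells without any Cd3 transcript, the Klf2 difference was -22.8 points with Cxcr6 (-33.6 to -7.78) and -28.5 points with Itga1 (-38.0 to -15.7), as large as with all cells. For S1pr5 in the same cells it was -14.2 points with Cxcr6 (-24.3 to 0.31) and -16.4 points with Itga1 (-25.8 to -3.88). In WT without the Cd3 cells, 10 cells with Cxcr6 were left, with a Klf2 difference of -1.40 points (-25.3 to 27.9), an S1pr5 difference of -3.51 (-18.8 to 27.8) and an S1pr4 difference of 32.6 (1.11 to 48.06). With Itga1 the WT differences were then -17.4 points for Klf2 (-30.9 to 1.015) and -4.51 for S1pr5 (-16.07 to 13.07). Median detected genes were 2308 and 2252 in PD-1-/- cells with and without Cxcr6 and 2356 and 2262 in WT, and 2404 and 2197 in PD-1-/- cells with and without Itga1 and 2596 and 2244 in WT. The part of depth in these differences was not tested.

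The members also differed between cells with and without a Cd3 transcript. Cd69 was found in 52.3% of the 65 WT cells with one (39.5 to 64.8) and 30.85% of those without (difference 21.5 points, 8.33 to 34.2), but in 34.9% and 31.45% of PD-1-/- cells (3.49 points, -7.45 to 15.4). S1pr1 was found in 26.2% against 14.6% in WT (11.6 points, 1.40 to 23.9) and 19.3% against 15.2% in PD-1-/- (4.08 points, -4.36 to 14.5). S1pr5 was lower on both plates, at 18.5% against 23.4% in WT (-4.93 points, -14.1 to 7.03) and 16.9% against 27.9% in PD-1-/- (-11.0 points, -19.6 to -0.38).

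Other genes of the pathway were read from lists. S1pr2, another S1P receptor gene, was found in 12.5% of WT cells and 10.4% of PD-1-/- cells, and S1pr3 in 1.39% and 0.27%. Of 10 genes that make, break down or carry S1P, 5 were found in at least 5% of cells, and the most frequent was Sgpl1, the lyase that degrades S1P, at 25.8% and 27.6%. The kinase Sphk2, which makes S1P, was found in 15.3% and 17.5%, and the other S1P kinase, Sphk1, is listed at 0 in every kept cell, which allows a share of cells with a detected read, not of cells expressing the gene, of up to 0.833% in WT and 0.820% in PD-1-/-. The S1P exporters Spns2 and Mfsd2b were found in 0.83% or less of cells of either plate. Of 9 genes that act below the receptors, 7 were tested. Rac2, a small GTPase of blood cells, was found in 97.8% and 98.9% of cells, Gnai2, the main inhibitory G protein subunit, in 72.2% and 78.1%, and Grk2, the kinase that desensitises S1PR1, in 43.1% and 44.8%. None of these 7 genes, of the 5 metabolic genes or of S1pr2 was 2-fold higher or lower on both plates in cells with Klf2, S1pr1, S1pr5 or Cd69, nor was any 2-fold different between the genotypes. Over all genes, 0.233% to 0.408% were higher and 0.338% to 2.10% lower on both plates in these splits, and 1.94% differed between genotypes. Finding none among so few genes lies near these shares.

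Among regulators and kin of Klf2, Klf3 was the single gene of 6 tested that was 2-fold higher on both plates in cells with Klf2, with log2 ratios of 2.09 and 1.96. Klf3, a KLF family repressor, was found in 38.5% of WT cells with Klf2 and 16.2% of those without, and in 40.5% and 14.3% in PD-1-/-. It was also 2-fold higher in cells with S1pr1 (1.63 and 1.03), where 0.408% of genes were higher and 2.10% lower on both plates, and in cells with S1pr5 (1.46 and 1.19), where 0.303% were higher and 1.47% lower. The list's median log2 ratio in cells with Klf2 was 0.13 in WT and 0.31 in PD-1-/-, against -0.01 and -0.03 for all genes tested. Foxo1, a factor upstream of Klf2 in lymphocytes, had ratios of 0.07 and 0.35.

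Some genes of tissue residency were lower in cells with Klf2 and in cells with S1pr5. In cells with Klf2, 2 of 7 tested genes, Itga1 (-1.14 in WT and -1.86 in PD-1-/-) and the phosphatase gene Inpp4b (-1.68 and -1.25), were 2-fold lower on both plates and none was higher. The list median was -0.21 in WT and -1.25 in PD-1-/-, against -0.01 and -0.03 for all genes, of which 0.700% were 2-fold lower on both plates. Cxcr6 was 2-fold lower in PD-1-/- cells with Klf2 (-2.51) and not in WT (0.04). In cells with S1pr5, 2 of 7, Cxcr6 (-2.31 and -2.13) and Inpp4b (-2.53 and -2.47), were 2-fold lower on both plates, and the list median was -0.997 in WT and -2.075 in PD-1-/-, against -0.04 and -0.05 for all genes, of which 1.47% were lower. In cells with S1pr1, none of the 7 was 2-fold higher or lower on both plates, with medians of 0.00 and -0.15 against -0.05 and -0.04 for all genes, of which 2.10% were lower. The split by Klf2, S1pr5 or S1pr1 reads the same cells as the splits by Cxcr6 and Itga1, so these values are no separate evidence. The residency gene Zfp683 was not found under its names in the tables and was not analysed.

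Among genes of mature circulating NK cells, Itgam went with S1pr5. Itgam, which encodes the maturation marker CD11b, was found in 25.9% of WT cells with S1pr5 and 15.4% of those without and in 37.6% and 15.02% of PD-1-/- cells, and its log2 ratios were 1.575 and 1.75. It was the single gene of 5 tested that was 2-fold higher on both plates, where 0.303% of all genes were higher and 1.47% lower. The list median was 0.60 in WT and 1.33 in PD-1-/-, against -0.04 and -0.05 for all genes tested. Klrg1, another maturation marker, had ratios of 0.78 and 1.33, and Tbx21, which encodes T-bet, a factor needed for S1pr5 expression in NK cells, had 0.23 and 0.47. Zeb2 had -0.05 and 1.42, and Ly6c2 had 0.60 and 0.38. Ly6c2 was, however, 2-fold higher on both plates in cells with Cxcr6 (2.47 and 1.75) and in cells with Itga1 (1.88 and 1.54). Of all genes, 1.10% and 0.828% were higher in these 2 splits. With Klf2 the list median was 0.14 in WT and 0.57 in PD-1-/-, and with S1pr1 it was 0.25 and -0.06. No gene of the list was 2-fold higher on both plates with either, where 0.233% and 0.408% of all genes were. The chemokine receptor gene Cxcr4, which holds cells in bone marrow, was 2-fold lower on both plates in cells with S1pr5 (-1.59 and -1.53), where 1.47% of all genes were. Cxcr4 was, however, also 2-fold lower on both plates in cells with Itga1 (-2.71 and -1.07), where 1.57% of all genes were.

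Some immediate early genes went with Cd69. In cells with Cd69, 4 of 12 tested genes were 2-fold higher on both plates, where 0.233% of all genes were higher and 0.338% lower. They were Egr1, with log2 ratios of 2.08 in WT and 2.67 in PD-1-/-, Nr4a1 (1.68 and 2.18), Nr4a2 (2.07 and 1.03) and Fos (1.44 and 1.21), all transcription factors induced early after stimulation. The list median was 0.60 in WT and 0.62 in PD-1-/-, against -0.01 and -0.03 for all genes. Egr1 was found in 17.6% of WT cells with Cd69 and 8.51% of those without, and in 19.5% and 7.66% of PD-1-/- cells. Fos was found in 24% and 17.02% of WT cells but in 15.25% and 17.7% of PD-1-/- cells, so that its higher mean on that plate came from the level and not from the share. In cells with Klf2, none of the 12 was 2-fold higher or lower on both plates.

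**Figure D5:**
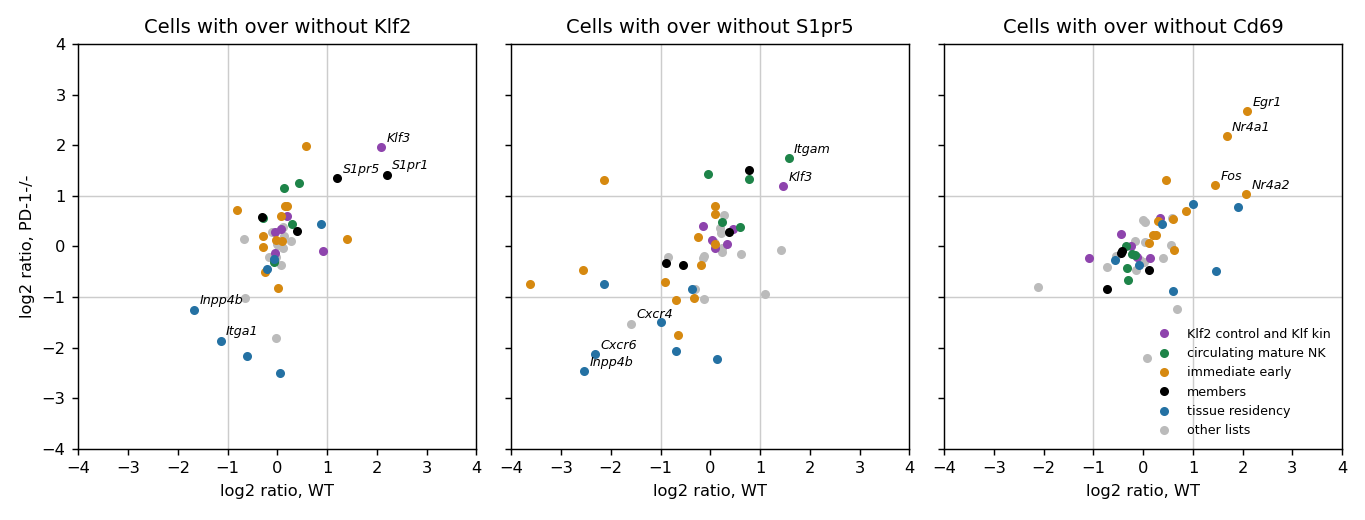
Log2 ratios of mean RPKM (1 RPKM added) in cells with over cells without Klf2 (left), S1pr5 (middle) and Cd69 (right), in WT on the horizontal and PD-1-/- on the vertical axis, 1 point per member or listed gene found in at least 5% of cells, colored by list; grey lines mark 2-fold. Named genes are at least 2-fold higher or at least 2-fold lower on both plates: Klf3, S1pr1 and S1pr5 are higher with Klf2, Itgam and Klf3 are higher with S1pr5, and 4 immediate early genes are higher with Cd69.

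The genes whose RPKM was most like that of a member were ranked by the mean over both genotypes of Spearman's rank correlation across cells, among genes found in at least 10% of kept cells. These correlations run over the 360 WT cells and, separately, the kept PD-1-/- cells, which share plate and depth, are weak, and are given as a description only. S1pr1 was most like Gramd3 (mean correlation 0.29), Klf2 (0.23), Rasgrp2 (0.21), Abcg1 (0.20) and Itgb7 (0.19). Gramd3 was found in 46.7% of WT cells with S1pr1 and 17% of those without, and in 45.8% and 15.96% in PD-1-/-. Least like it were the granzyme gene Gzmb (-0.21), the chemokine gene Xcl1 (-0.19) and the actin regulator Pfn1 (-0.18). Mean Gzmb was 1534 RPKM in WT cells with S1pr1 and 2871 in cells without, and 1394 and 3668 in PD-1-/- cells.

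Klf2 was most like Ccl5 (0.33), a chemokine gene of mature cytotoxic cells, Klf3 (0.29), S1pr1 (0.23), A430078G23Rik (0.23) and the histone gene H2afz (0.21), and S1pr5 ranked 7 with 0.20. Ccl5 was found in nearly all cells, with means of 9308 and 4572 RPKM in WT cells with and without Klf2 and of 10692 and 6090 in PD-1-/- cells. Least like Klf2 were Xcl1 (-0.26), the elongation factor gene Eef1a1 (-0.24) and the ribosomal gene Rplp0 (-0.23). Xcl1 was found in 48.8% of PD-1-/- cells with Klf2 and 80.4% of those without, and in 72.4% and 80.9% of WT cells.

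S1pr5 was most like Ccl5 (0.27), Ncr1 (0.23), which encodes the NK receptor NKp46, Ifitm10 (0.22), Rap1gap2 (0.22) and the granzyme gene Gzma (0.22). Rap1gap2 was found in 23.5% of WT cells with S1pr5 and 8.24% of those without, and in 27.96% and 9.52% in PD-1-/-. Least like it were Ly6e (-0.25) and the ribosomal genes Rps15a (-0.24) and Rps3 (-0.21). S1pr4 had no gene above 0.19, and its most like genes were Ptprcap (0.18), Kbtbd11 (0.17), A430078G23Rik (0.16), Gmfg (0.16) and Spn (0.16), and its least like were Rpl38 and Xcl1 (both -0.14) and Rgs1 (-0.13). RGS1 is known to dampen signalling of G protein-coupled receptors.

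Cd69 was most like Lilrb4 (0.21), an inhibitory receptor gene, Xcl1 (0.21), Nfkbia (0.20), a target of NF-kB, Egr1 (0.18) and the ribosomal gene Rpl13a (0.17). Xcl1 was found in 84.8% of WT cells with Cd69 and 73.2% of those without, and in 81.4% and 64.5% of PD-1-/- cells. Least like Cd69 were Pycard (-0.18), Gprin3 (-0.13) and 5830432E09Rik (-0.12). Xcl1 thus stood among the genes most like Cd69 and among those least like S1pr1, S1pr4 and Klf2.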

How the data were processed

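NK cells on 2 plates, 768 wells in all, were analysed. The authors deposited RPKM per gene and well for 24490 entries, made per the submitters' processing notes with TopHat and Cufflinks, and builds mm9 and mm10 are both named there without their roles. Values were used without further scaling. Genes above 0 in at least 3 wells were counted, and wells with 1000 to 3500 of them were kept (360 WT, 366 PD-1-/-). The steps between a gene's RPKM values gave whole reads for 10124 genes, with 99.0% of 709611 values under 60 reads within 0.0003 of a whole number, and were used only for depth and thinning (39 kept cells under 100000 reads were left out there). Recovery and log2 ratios were tested on simulated data.

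Log2 ratios are of mean RPKM with a pseudocount of 1, and "2-fold" means at least 2-fold, over genes found in at least 5% of kept cells (10% or no filter as alternatives). Genotype is 1 pool of 3 mice on 1 plate, so no test was run. A difference of shares has square-and-add Wilson limits. No doublet caller was run on sorted wells. Members and gene lists were chosen with earlier results of these data known. Named genes are the members, Cxcr6, Itga1, the listed genes and, per member, the 5 genes of highest and the 3 of lowest mean Spearman's rank correlation among 6727 genes found in at least 10% of cells. Marker lists were those of T, NK, myeloid, neutrophil, B, fibroblast and endothelial cells. Myeloid markers were found in 13.1% of WT cells, 7.10% of PD-1-/- cells, and neutrophil markers in 1.94% and 1.37%. Receptor proteins were not compared. Alternatives changed the cell filter, the RPKM that counts as present, depth, plate rows, Cd3 cells, pseudocount and scaling. Python 3.11.15, numpy 2.4.6, scipy 1.17.1, pandas 2.3.3 and matplotlib 3.10.9 were used.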

Additional observations from a re-analysis of the deposited data

Results flagged for a closer look

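Differences between cells with and without a gene had, for some pairs of genes, opposite signs in the 2 genotypes, each genotype being 1 sample; whether they differ was not tested, and all of their intervals included 0. The share with Cd69 in cells with Cxcr6 minus cells without was 4.95 points in WT and -3.00 in PD-1-/-. The share with S1pr1 in cells with Itga1 minus cells without was 4.81 points in WT and -0.75 in PD-1-/-. The share with S1pr5 in cells with S1pr1 minus cells without was -5.00 points in WT and 0.0166 in PD-1-/-. The share with Cd69 differed by 0.33 and -2.065 points between cells with and without S1pr1, by -2.35 and 1.09 points for S1pr4, and by 6.599 and -6.19 points for Klf2, in WT and PD-1-/- cells.

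Members were also found in wells that the comparisons left out, above the share that a count of 0 would allow. In the 30 wells with more than 3500 detected genes, S1pr4 was found in 70%, Cd69 in 50% and Klf2 in 33.3%, while S1pr1 and S1pr5 were found in 1 well each. In the 12 wells with fewer than 1000 detected genes, Cd69 was found in 33.3% and none of the other 4 members was found.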

How the results depend on the processing

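No paired analysis was possible because no result comes from a test and well numbers only name wells of 1 pool per genotype. Of the values recomputed for 31 results (genotype differences, log2 ratios, differences by Cxcr6 and Itga1, and the count of pairs), all but 2 moved by less than their interval or stayed on their side of 2-fold. In rows I to P only, the Cd69 difference between WT cells with and without Cxcr6 was -14.8 points instead of 4.95. In rows A to H only, 2 of the 10 pairs, and not 5, were found together more often than the product of the shares on both plates. The cause was not tested. The interval of the Klf2 genotype difference reached above 0 in 3 of the settings given beside it. Of 38 further results, 25 recomputed values moved, 18 of them percents of genes called and 7 the genes most like a member, and none was a co-detection difference. The percent of genes 2-fold different between genotypes was 5.92 with no filter on low values and 0.728 over genes found in at least 10% of cells. Of the 5 genes most like each member, 1 remained for S1pr4 and 3 each for S1pr5, Klf2 and Cd69 without Cd3 cells, and 2 remained for S1pr4 and 3 each for S1pr5 and Klf2 with thinned reads. Counting error limits every group of few cells, such as the WT cells with Cxcr6.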
